A study of Homo sapiens with 18 samples.

Results

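Transcript levels of the constitutive proteasome were measured across 18 RNA libraries from KNS-42, an established human glioma cell line that expressed Cas9 in every group. The genes were protein-coding symbols that begin with PSMA, PSMB, PSMC, PSMD, PSME, PSMF or PSMG and end in a number, without the interferon-inducible subunits PSMB8, PSMB9, PSMB10, PSME1 and PSME2. This gave 43 of the 58050 gene identifiers in the table: 16 core genes, 9 base genes, 8 lid genes, 7 assembly chaperones and 3 regulators. A level of 10 or more in at least 3 libraries was needed for testing, and 41 of the 43 reached it. The other two were core genes with known tissue-restricted use: PSMA8, a testis form, was listed at 0 in all libraries, and PSMB11, a thymus form, reached 4.57 at most. PSMC3IP shares the prefix and is not a proteasome subunit, so it was left out.

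Each of 6 groups had 3 replicate libraries, taken on day 7 after lentiviral delivery of a guide RNA into cells kept in puromycin. Guide 395 targets the endogenous DDX3X gene, which encodes an RNA helicase, on the X chromosome, and guide AAVS1 is the negative control. Both guides were used in parental cells, in cells that overexpress a codon-optimised DDX3X (DDX3Xoe) and in cells that overexpress a codon-optimised DDX3Y, the homologue on the Y chromosome (DDX3Yoe). All groups are derivatives of this single cell line, and the labels do not say whether replicates were separate transductions, so p-values measure only the spread between these libraries, which may be technical. The comparisons ask what cutting DDX3X does to these transcripts, and whether either transgene alters that.

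The proteasome degrades proteins tagged with ubiquitin. Its core particle is a barrel in which outer alpha rings gate the entrance and inner beta rings hold the proteolytic sites of PSMB5, PSMB6 and PSMB7. The regulatory particle has a base, whose ATPases unfold substrates and whose other subunits bind ubiquitin and shuttle factors, and a lid, whose enzyme PSMD14 removes the ubiquitin chain. Transcription of the subunits is known to be raised together by the factor NFE2L1 when proteasome activity is short.

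The libraries held 5.67 M to 13.2 M reads (M, 1e6), with a median of 8.85 M, and levels below are reads divided by a size factor for each library. DDX3X, the check of the guide, stood at 1780, 1923 and 1729 with AAVS1 and at 861, 844 and 953 with guide 395 in parental cells, and at 1379, 1557 and 1439 against 878, 739 and 653 in DDX3Yoe cells. In the libraries labelled DDX3Xoe it stood at 668, 1504 and 1162 with AAVS1 and at 1416, 716 and 578 with guide 395, so both replicate 1 libraries went against their labels. Of 9 glial and neural progenitor markers 7 passed the filter, SOX2, VIM and GFAP among them, and OLIG2 and S100B were listed at 0 throughout. Of 7 markers of blood, endothelial and epithelial cells 2 passed the filter, PECAM1 (40.5 at most) and CDH1 (20.7 at most). The 7 summed to no more than 49.0 in any library, with 18.6 to 25.7 in parental AAVS1 and 27.1 to 43.1 in parental 395 libraries. The sums of the 9 neural markers were 36784 to 72800 and 34533 to 40202 in the same groups. NES, a progenitor intermediate filament, was lower with guide 395 in parental cells (log2 fold change -1.71, SE 0.26, limma adjusted p 0.00314), and its part in the results on proteasome genes was not tested. In bulk RNA, fewer cells of a kind and less RNA per cell cannot be told apart.

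Replicate 1 of parental AAVS1, replicate 1 of parental 395 and replicate 1 of the group labelled DDX3Xoe AAVS1 stood apart from the other 15 libraries. PSMC1, an ATPase of the base, was at 69.8, 46.6 and 54.2 in these 3 libraries and between 174 and 389 in the other 15. The trio was noticed through this gene. PSMA1, PSMA5, PSMB2, PSMC2, PSMD6, PSMD11, PSMD5 and PSMG2 were higher in all 3 than in any of the other 15 libraries. PSMD5, a chaperone of base assembly, was at 270 to 341 there against 25.6 to 201, and PSMA1, an alpha subunit, at 461 to 521 against 82.0 to 279. Over all genes tested, 1462 (9.60%) lay above and 785 (5.15%) below the other 15 libraries in the same trio. FABP7, a marker of radial glia, was at 205 to 381 in the trio and at 4.01 to 32.9 elsewhere. PSMC1 reads are uncertain, since its pseudogene PSMC1P1, with a median level of 27.1% of that of PSMC1, was also low in the trio (17.5, 9.67 and 13.8 against 37.5 to 121). The shares, ratios, class medians and differences between lines that rest on these libraries are therefore also given without them, a check chosen after the data were seen.

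In parental cells, proteasome transcripts took a smaller share of all reads with guide 395 than with AAVS1, and core, base and lid genes each did so in every library. The 41 genes took 0.631, 0.712 and 0.621% of reads in the AAVS1 libraries and 0.515, 0.491 and 0.512% in the 395 libraries. The groups did not overlap, and the mean share was 22.7% lower. The exact two-sided permutation p was 0.1, the smallest that 3 libraries against 3 can give. Core genes took 0.235, 0.246 and 0.209% with AAVS1 and 0.186, 0.161 and 0.165% with guide 395. Base genes took 0.181, 0.255 and 0.216% and then 0.129, 0.154 and 0.166%. Lid genes took 0.158, 0.143 and 0.130% and then 0.123, 0.109 and 0.112%. The mean share was thus 25.6% lower for core, 31.1% for base and 19.9% for lid genes, with no overlap in any of the 3 classes (exact p 0.1 each). Mitochondrially encoded genes took 9.78, 12.7 and 6.10% of reads with AAVS1 and 6.34, 6.20 and 3.83% with guide 395. Of the reads outside those genes, the members took 0.661 to 0.815% and 0.523 to 0.550%, again without overlap. The mean share was 24.8% lower for members, 28.2% for core, 32.0% for base and 18.6% for lid genes without the 3 libraries that stood apart. The groups of 2 did not overlap either (exact p 0.333 each, the smallest that 2 against 2 can give).

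**Figure D1:**
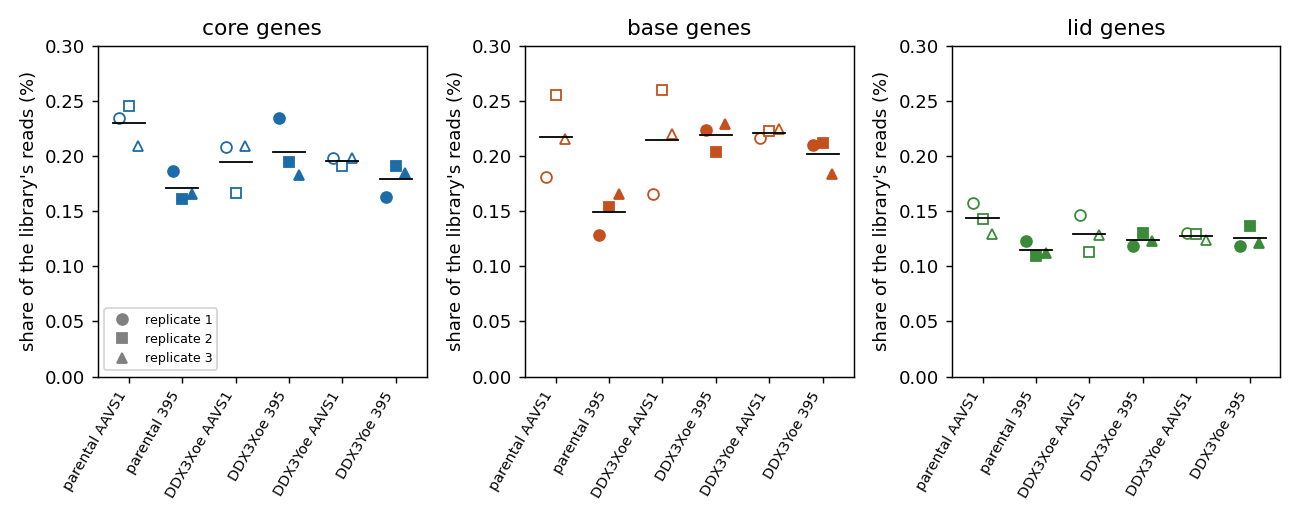
Share of each library's reads (%, linear axes from 0) taken by core, base and lid genes in the 6 groups. Open symbols are guide AAVS1, filled symbols guide 395, shapes the replicate numbers and lines the means of 3 libraries. In parental cells all 395 libraries lie below all AAVS1 libraries in each of the 3 panels, while the groups labelled DDX3Xoe overlap in each. In DDX3Yoe cells the base genes alone lie lower in all 395 libraries, and core and lid overlap.

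Gene by gene, most members pointed the same way in parental cells, and no single gene passed the test. Of the 41, 36 had a log2 fold change below 0, with a median of -0.29 and a range from -0.87 (PSMD4) to 0.59 (PSMD5), beside a median of 0.017 and 48.9% below 0 over all 15228 genes tested. limma on log2(level + 1), with Benjamini-Hochberg adjustment over all genes, called 0 of the 41 at an adjusted p under 0.05, where it called 1.78% of all genes and 0.801% as lower. At an unadjusted p under 0.05 there were 9 members, against 16.9% of all genes. The limma fit was unpaired. Deviations of same-numbered parental libraries from their group means correlated at 0.57, 0.20 and 0.28, and those of differently numbered ones at up to 0.15. Under a replicate block PSMD1 and PSMD7 were called lower, beside 2.24% of all genes. DESeq2 on the recovered reads called PSMA7, PSMB6, PSMD1, PSMD4 and PSMD7 lower, beside 3.09% of all genes, and edgeR called 0. All 3 AAVS1 levels lay above all 3 levels with guide 395 in 8 members, which is 19.5% of the 41 beside 9.86% of all genes. The opposite order held for 1 member, PSMF1, beside 10.7% of all genes.

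**Figure D2:**
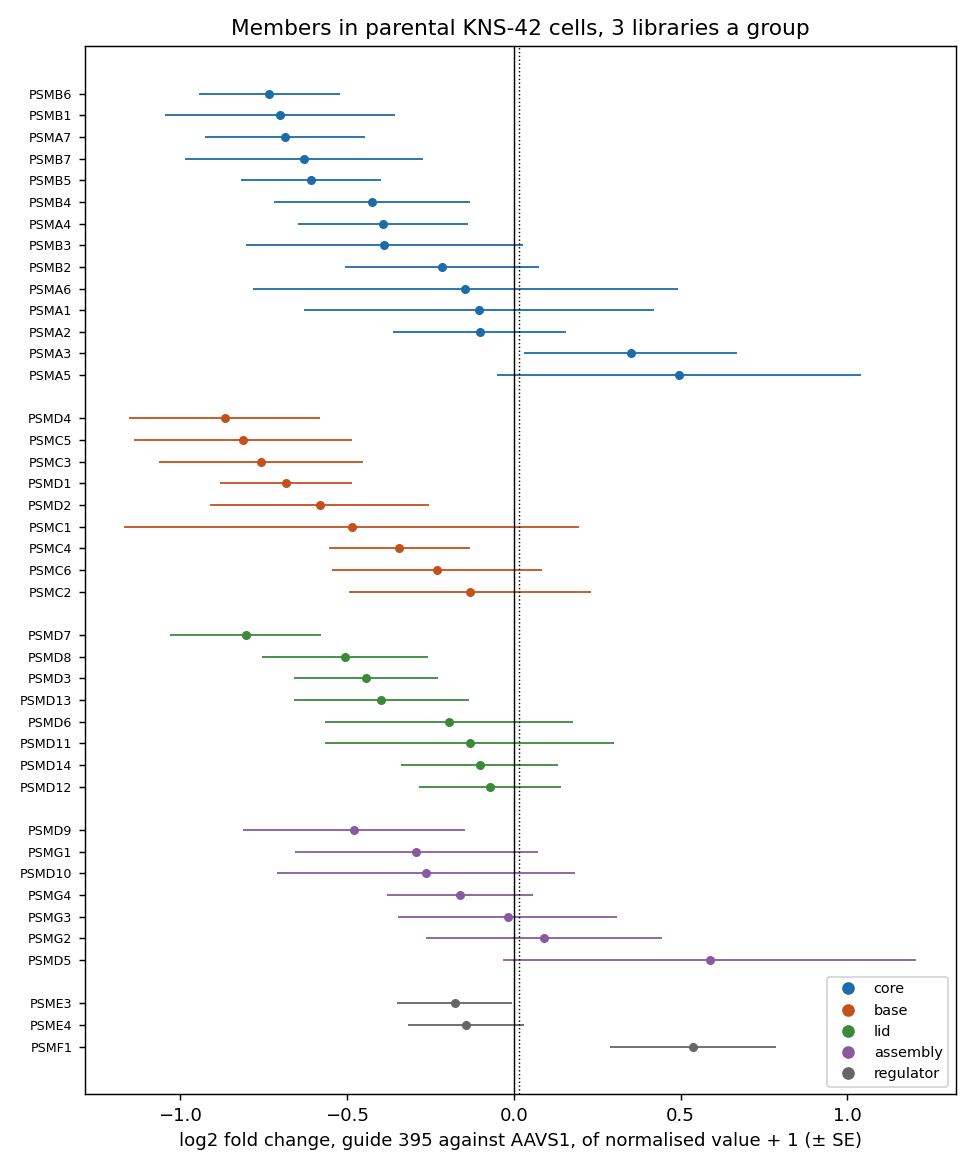
log2 fold change of guide 395 against AAVS1 in parental cells for the 41 members, with the standard error of the limma fit as a bar. Colours give the class, the solid line is 0 and the dotted line the median of all genes tested (0.017). All base and lid genes lie left of 0, and PSMA3, PSMA5, PSMD5, PSMG2 and PSMF1 lie right of it.

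In the core particle the beta ring had the lower values. All 7 beta genes tested were below 0, with a median of -0.61 on the log2 scale, while 5 of the 7 alpha genes were below 0, with a median of -0.10. PSMB6 (chromosome 17, 4796144 to 4798503 on GRCh38), which carries the caspase-like site, had levels of 3130, 4745 and 3070 with AAVS1 and of 2329, 1956 and 2179 with guide 395. The groups did not overlap, and the log2 fold change was -0.73 (SE 0.21, limma adjusted p 0.0787; DESeq2 adjusted p 0.0112). PSMB5 (chromosome 14, 23016543 to 23035230), the chymotrypsin-like site, was at 1470, 1522 and 1097 and then at 971, 733 and 973, also without overlap, with a log2 ratio of -0.61 (SE 0.21, limma adjusted p 0.138). PSMB7, the trypsin-like site, was at 1615, 3561 and 1486 and then at 1783, 1430 and 905. Its groups overlapped, and the AAVS1 replicate 2 library stood well above the rest (log2 fold change -0.63, SE 0.36, limma adjusted p 0.392). Its log2 fold change was -1.01 without the 3 libraries that stood apart and -0.23 without AAVS1 replicate 2, with limma adjusted p of 0.236 and 0.893. The structural beta subunits PSMB1 and PSMB4 had log2 fold changes of -0.70 and -0.42.

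PSMA7 (chromosome 20, 62136735 to 62143440) was the alpha gene with the lowest value. Its levels were 3311, 6598 and 4229 with AAVS1 and 2624, 2865 and 2950 with guide 395. The groups did not overlap (log2 fold change -0.69, SE 0.24, limma adjusted p 0.145; DESeq2 adjusted p 0.0432). Without AAVS1 replicate 2, the highest library, it was -0.41. PSMA5, another alpha subunit, had the largest value against the trend of the core: 399, 135 and 153 with AAVS1, and 501, 184 and 251 with guide 395. Each 395 library was above its same-numbered control, while the groups overlapped because both replicate 1 libraries were high (log2 fold change 0.49, SE 0.55, limma adjusted p 0.697). Without AAVS1 replicate 1 it was 0.98, and without 395 replicate 1 it was 0.089. PSMA3 had a log2 fold change of 0.35. PSMA6 was near the detection limit, at 7.30 to 45.3 across all libraries, so its log2 fold change of -0.15 (SE 0.64) is uncertain. Why its level was low was not tested.

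In the base, which unfolds substrates, all 9 genes were below 0, with a median of -0.58 on the log2 scale. The 3 that are not ATPases had a median of -0.68 and the 6 ATPases of -0.41. PSMD1 (chromosome 2, 231056864 to 231172827), a large scaffold, was at 3386, 3393 and 2433 with AAVS1 and at 1880, 1903 and 1892 with guide 395. Its 395 libraries were almost equal and all below the controls (log2 fold change -0.68, SE 0.20, limma adjusted p 0.0790). With the replicate block its adjusted p was 0.0380, with a block within each cell line 0.0544, and without parental AAVS1 replicate 3 it was 0.0449. PSMD4 (chromosome 1, 151254703 to 151267479), a ubiquitin receptor, was at 2934, 7232 and 4233 and then at 2089, 2715 and 2608. The groups did not overlap and the AAVS1 libraries were widely spread (log2 fold change -0.87, SE 0.29, limma adjusted p 0.119; DESeq2 adjusted p 0.0274). The ATPase PSMC3 (chromosome 11, 47418769 to 47426473) was at 1094, 2347 and 1217 and then at 916, 988 and 712, without overlap (log2 fold change -0.76, SE 0.31, limma adjusted p 0.205). PSMC5, another of the 6 ATPases, was at 1767, 4784 and 2655 and then at 1460, 1575 and 1805. Its groups overlapped, and its AAVS1 replicate 2 library was the highest (log2 fold change -0.81, SE 0.33, limma adjusted p 0.206). AAVS1 replicate 2 was the highest library for both PSMD4 and PSMC3, and without it their log2 fold changes were -0.52 and -0.42.

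In the lid, which holds the deubiquitinase, all 8 genes were below 0, with a median of -0.30 on the log2 scale. PSMD7 (chromosome 16, 74296775 to 74306288), the inactive partner of PSMD14 in the lid, was at 1511, 2780 and 1746 with AAVS1 and at 1048, 1242 and 1057 with guide 395. The groups did not overlap, and this was the member with the smallest p (log2 fold change -0.80, SE 0.23, limma adjusted p 0.0737). It was called with the replicate block (adjusted p 0.0426), with the block within each cell line (0.0442) and by DESeq2 (0.0125). It was not called by edgeR (adjusted p 0.0642), nor by limma without both replicate 1 libraries labelled DDX3Xoe (0.0655). AAVS1 replicate 2 was its highest library. PSMD3, a structural lid subunit, was at 5366, 5104 and 4156 and then at 3690, 3120 and 3932, without overlap (log2 fold change -0.44, SE 0.22, limma adjusted p 0.310). PSMD8, another structural subunit, was at 1724, 3541 and 2047 and then at 1784, 1516 and 1608, and replicate 1 overlapped (log2 fold change -0.51, SE 0.25, limma adjusted p 0.312). It was -0.79 without the 3 libraries that stood apart and -0.20 without AAVS1 replicate 2. PSMD14 itself was at 936, 631 and 706 and then at 775, 679 and 641, with wide overlap (log2 fold change -0.10, SE 0.24, limma adjusted p 0.871).

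The order of the class medians, with base lowest, then core, then lid, was looked at within each same-numbered parental pair. In replicates 1, 2 and 3 the median difference between guide 395 and AAVS1 (log2 scale) was -0.33, -0.83 and -0.48 for base genes, -0.16, -0.49 and -0.37 for core genes, and -0.28, -0.49 and -0.24 for lid genes. Base genes had the lowest median in all 3 pairs, while core and lid changed places in replicate 1 and were about equal in replicate 2. All 9 base genes were below 0 in replicates 1 and 3, and 7 of 9 in replicate 2. Without the 3 libraries that stood apart, the medians were -0.55 for base, -0.30 for core and -0.27 for lid genes. Without 395 replicate 1 alone the order was another, with medians of -0.44 for base, -0.49 for core and -0.46 for lid genes. The differences between classes were not tested, since genes of a class are not replicates.

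Of the 7 assembly chaperones 5 were below 0, with a median of -0.16 on the log2 scale, and of the 3 regulators 2 were below 0, with a median of -0.14. PSMD9, a chaperone of the base, was at 102, 70.7 and 99.3 with AAVS1 and at 41.3, 72.8 and 86.6 with guide 395, with overlap (log2 fold change -0.48, SE 0.33, limma adjusted p 0.494). Its value was -0.077 without the 3 libraries that stood apart. The core chaperones PSMG1, PSMG2, PSMG3 and PSMG4 lay between -0.29 and 0.090. PSMF1, an inhibitor of the proteasome in the test tube, had the reverse order of groups, at 868, 1088 and 919 and then at 1793, 1100 and 1348 (log2 fold change 0.54, SE 0.25, limma adjusted p 0.279). Its value was 0.28 when the 3 libraries that stood apart were left out. PSME3 and PSME4, nuclear activators that open the core, had log2 fold changes of -0.18 and -0.14.

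Members with more reads had the lower values. Across the 41 genes, mean level over 18 libraries and log2 fold change in parental cells had a Spearman correlation of -0.59, against -0.13 across all 15228 genes. The 19 members with a mean of at least 1000 were all below 0, with a median of -0.61, and the 22 under 1000 had a median of -0.14, with 17 below 0. Among all 1831 genes of at least 1000, the median was -0.19 and 64.8% were below 0. Genes are not independent replicates, so this is a description. Adding 1 to the level understates changes mainly of genes with very few reads, such as PSMA6 (7.30 to 45.3). Alpha genes held several of the low levels, with medians over libraries of 216 for PSMA1, 417 for PSMA2, 269 for PSMA3 and 152 for PSMA5, so level and ring position cannot be told apart here.

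**Figure D3:**
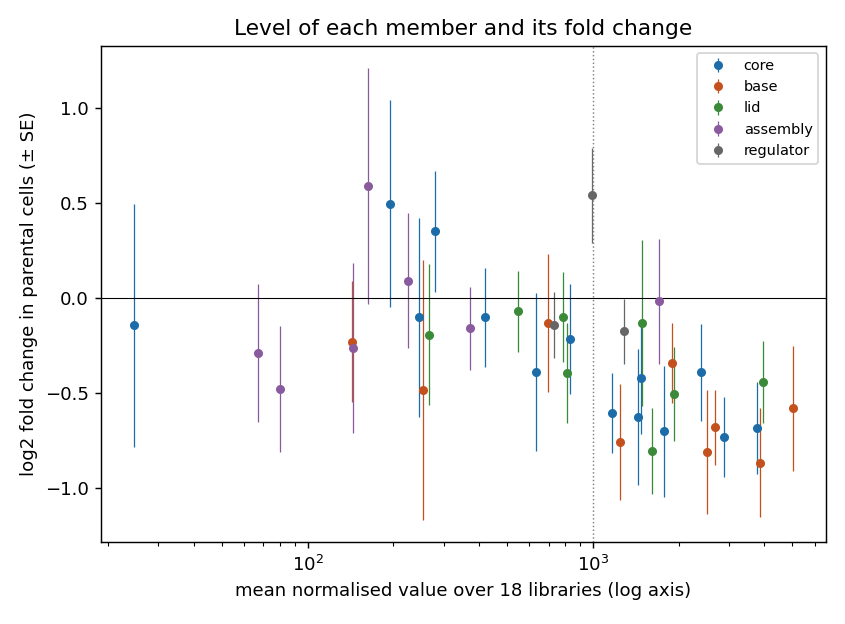
Mean normalised value of each member over 18 libraries (log axis) against its log2 fold change in parental cells, with the standard error as a bar and colours for the class. The dotted line marks 1000, and all 19 members beyond it lie below 0.

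In the libraries labelled DDX3Xoe, the members were spread on both sides of 0. Of the 41, 22 were below 0, with a median of -0.012 on the log2 scale, and medians of 0.028 for core, -0.0065 for base and -0.14 for lid genes. Of all 1831 genes with a mean level of at least 1000, 49.0% were below 0, with a median of 0.0055. The 13397 genes under 1000 had a median of -0.021. limma called 0 of the 41, beside 0.0% of all genes, and at an unadjusted p under 0.05 there were 0 members and 315 genes. No member lay lower in all 395 libraries (2.04% of all genes did), and 1 lay higher, PSME3 (1.83% of all genes). Their share of reads was 0.583, 0.588 and 0.629% with AAVS1 and 0.646, 0.592 and 0.604% with guide 395, with overlap (exact p 0.5). Without both replicate 1 libraries the mean share was 1.72% lower with guide 395, with overlap. PSMD7 was at 1339, 2041 and 1746 and then at 1781, 1649 and 1797, and PSMB6 at 2688, 3055 and 3026 and then at 3229, 2284 and 3285. The groups overlapped for both. Without both replicate 1 libraries, whose DDX3X levels went against their labels, the medians were -0.098 over all members, 0.063 for core, -0.18 for base and -0.045 for lid genes.

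In DDX3Yoe cells, 30 of the 41 members were below 0, with a median of -0.12 on the log2 scale, beside 50.3% below 0 over all genes. The classes had medians of -0.079 for core, -0.16 for base and -0.059 for lid genes. The beta ring had all 7 genes below 0, with a median of -0.19, and the alpha ring 3 of 7, with a median of 0.092. limma called 0 of the 41, beside 0.0% of all genes, and at an unadjusted p under 0.05 there were 0 members and 153 genes. PSMA7, PSMB1, PSMB5, PSMB6 and PSME4 lay lower in all 395 libraries, 12.2% of the members beside 3.69% of all genes. PSMG1 lay higher in all 3, beside 3.80% of all genes. PSMA7 was at 3832, 3784 and 3871 and then at 3577, 3466 and 3424. PSMB5 was at 1207, 1202 and 1194 and then at 1148, 1024 and 934. PSMB6 was at 2903, 3085 and 3063 and then at 2603, 2862 and 2490. These 3 genes were among those without overlap in parental cells too, and their log2 fold changes here were -0.13, -0.22 and -0.19 (limma adjusted p 1.00 each). The share of reads was 0.611, 0.602 and 0.621% with AAVS1 and 0.546, 0.596 and 0.554% with guide 395, without overlap (exact p 0.1). By class, the mean share was 8.34% lower for core genes (exact p 0.2), 8.69% for base genes (exact p 0.1) and 1.86% for lid genes (exact p 0.8), and the groups overlapped for core and lid.

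**Figure D4:**
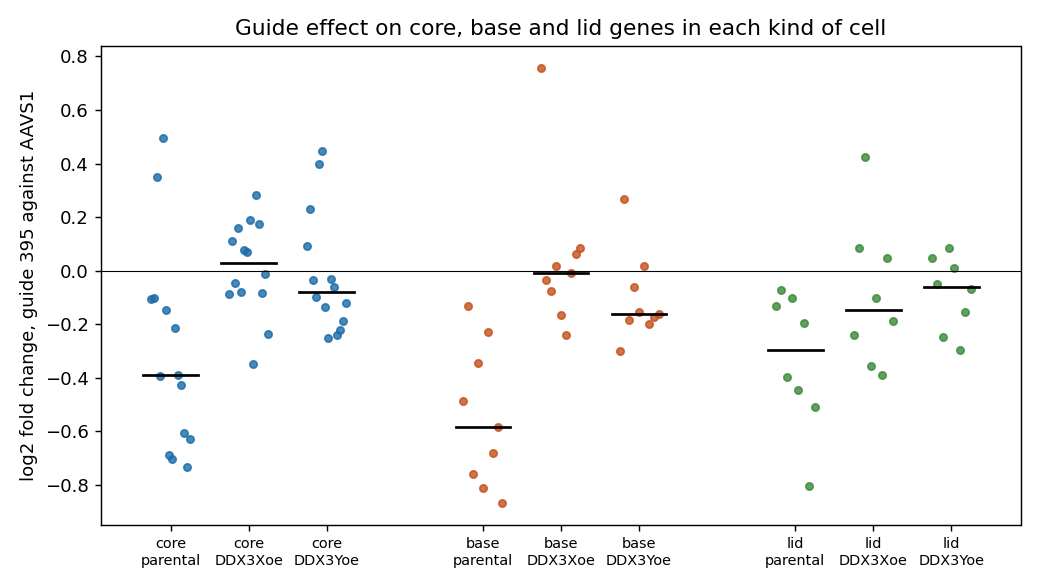
log2 fold change of guide 395 against AAVS1 for each core, base and lid gene in the 3 kinds of cell, with the class median as a line. Medians in parental cells are -0.39, -0.58 and -0.30, and those in the cells labelled DDX3Xoe and in DDX3Yoe cells lie between -0.16 and 0.028.

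The difference between cell lines in the effect of the guide was tested directly, and did not pass for any member. The libraries labelled DDX3Xoe minus parental had a median of 0.32 over the 41 members and was above 0 in 29, with medians of 0.46 for core, 0.65 for base and 0.24 for lid genes. limma called 0 of the 41, beside 0.046% of all genes, and 6 members had an unadjusted p under 0.05, beside 8.14% of all genes. The smallest adjusted p was that of PSMD7 (log2 difference 0.85, SE 0.32, limma adjusted p 0.510). Without both replicate 1 libraries labelled DDX3Xoe, whose DDX3X levels went against their guides, the medians were 0.30 over members, 0.35 for core, 0.31 for base and 0.32 for lid genes, and 1 member had an unadjusted p under 0.05 beside 6.41% of all genes. They were 0.42, 0.65, 0.45 and 0.33 without the 3 libraries that stood apart. No gene at all was called in either case. DDX3Yoe minus parental had a median of 0.29 and was above 0 in 33, with 0 calls beside 0.0% of all genes and 1 member at an unadjusted p under 0.05, beside 4.84% of all genes. Without the 3 libraries that stood apart its median was 0.34, with 4 members at an unadjusted p under 0.05 beside 5.75% of all genes. Both differences use the same parental libraries. Shares of all genes above 0 are not given for them, so the counts above 0 do not set the members apart. DDX3Yoe minus DDX3Xoe had a median of -0.079, with 0 calls beside 0.0% of all genes and 0 members at an unadjusted p under 0.05, beside 1.49% of all genes.

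Under the control guide alone, the overexpressing cells had slightly lower medians than parental cells, and 0 members were called in any of the 3 comparisons, beside 0.0% of all genes in each. DDX3Xoe against parental had a median log2 fold change of -0.18, with 33 of 41 below 0 and -0.32 for core genes. DDX3Yoe against parental had a median of -0.16, with 31 below 0 and -0.26 for core genes. Both use the 3 parental AAVS1 libraries that also serve as controls of the parental guide effect, so these results are not independent. Members took a mean share of reads of 0.655% in parental, 0.600% in DDX3Xoe and 0.611% in DDX3Yoe AAVS1 libraries. It was 0.506% in parental 395 libraries. DDX3Yoe against DDX3Xoe had a median of 0.036. Shares of all genes below 0 are not given for these 3 comparisons, so the counts below 0 do not set the members apart. At an unadjusted p under 0.05 there were 0, 1 and 0 members, beside 0.985, 2.64 and 0.893% of all genes. Without both replicate 1 libraries labelled DDX3Xoe, DDX3Xoe against parental had a median of -0.23 over members and -0.41 for core genes, and base genes turned from -0.071 to 0.050. There, 4 members had an unadjusted p under 0.05, beside 4.68% of all genes. Without the 3 libraries that stood apart, the medians over members against parental cells were -0.25 for DDX3Xoe and -0.11 for DDX3Yoe.

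The interferon-inducible subunits, which replace or cap constitutive parts, had log2 fold changes above 0 in parental cells, with a median of 1.19 over the 4 tested. limma called 0 of the 4, with and without the replicate block, beside 1.78% of all genes in the main fit. All 4 were also above 0 in the libraries labelled DDX3Xoe and in DDX3Yoe cells, with medians of 0.42 and 0.50. PSMB8, the replacement for PSMB5, was at 763, 272 and 670 with AAVS1 and at 2937, 1414 and 1180 with guide 395 (log2 fold change 1.71, SE 0.54, limma adjusted p 0.109). PSMB9, the replacement for PSMB6, was at 722, 1054 and 2019 and then at 3435, 2989 and 4555 (log2 fold change 1.64, SE 0.50, limma adjusted p 0.0952). The groups did not overlap for either, and 10.7% of all genes were likewise higher in all parental 395 libraries. DESeq2 called both higher (adjusted p 0.0317 for PSMB8 and 0.0428 for PSMB9). The share of all genes that DESeq2 called higher is not given, so these calls do not set the subunits apart. PSMB9 was also called with the block within each cell line (adjusted p 0.0280) and without both replicate 1 libraries labelled DDX3Xoe (0.0470). PSMB8 was thus called under 1 and PSMB9 under 3 of the 20 alternatives run. Without AAVS1 replicate 2, the limma adjusted p was 0.426 for PSMB8 and 0.283 for PSMB9. PSME1 and PSME2, the activator that serves antigen processing, had log2 fold changes of 0.33 and 0.74, and PSMB10 stayed between 0 and 5.58. PSME2 reads are uncertain, since its pseudogene PSME2P6 had a median level of 268 over the 18 libraries. The ratio of PSMB8 to PSMB5 in the same library was 0.519, 0.178 and 0.611 with AAVS1 and 3.02, 1.93 and 1.21 with guide 395. The ratio of PSMB9 to PSMB6 was 0.231, 0.222 and 0.658 and then 1.47, 1.53 and 2.09. Both ratios were higher in all 395 libraries (log2 differences 2.32 and 2.38, exact two-sided permutation p 0.1 each, the smallest possible, over 6 such tests). Without the 3 libraries that stood apart the log2 differences were 2.21 and 2.23, and the 395 libraries were again all higher. In the libraries labelled DDX3Xoe and in DDX3Yoe cells the log2 differences lay between 0.64 and 0.96, with overlap of the groups. Without both replicate 1 libraries labelled DDX3Xoe the ratio of PSMB9 to PSMB6 did not overlap there, at 0.414 and 0.366 with AAVS1 and at 1.09 and 0.416 with guide 395 (log2 difference 0.79, exact p 0.333, the smallest possible). The ratio of PSMB8 to PSMB5 still overlapped (log2 difference 0.88).

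**Figure D5:**
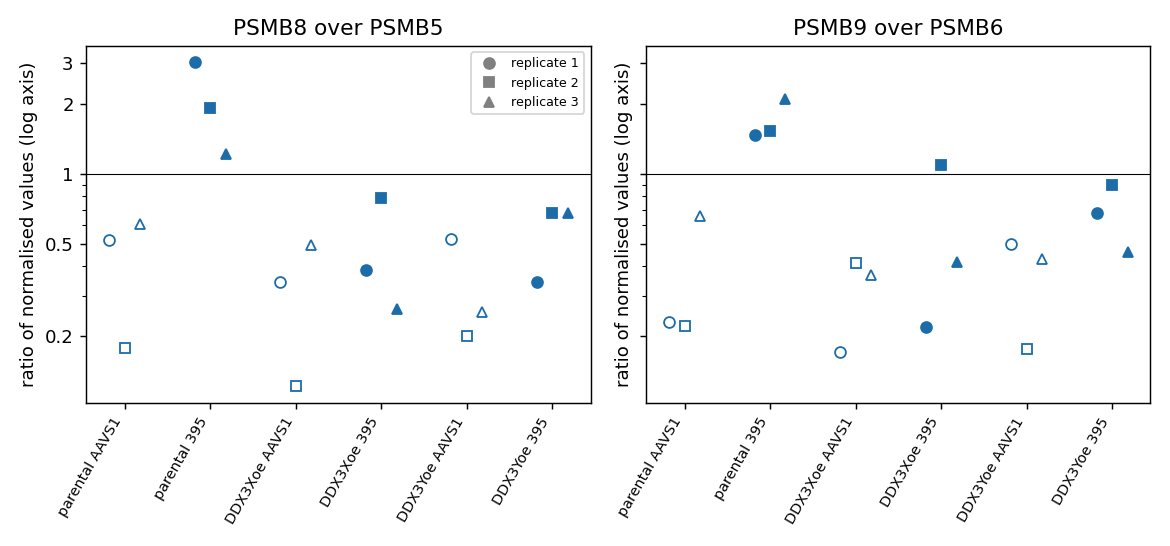
Ratio of an interferon-inducible catalytic subunit to the constitutive subunit it replaces, per library, on a log axis. Open symbols are guide AAVS1, filled symbols guide 395 and shapes the replicate numbers. In parental cells the 395 libraries lie above 1 and the AAVS1 libraries below it in both panels.

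Of 37 other genes of the pathway that passed the filter, limma called 1 higher and 0 lower in parental cells, beside 1.78% of all genes, and 22 were below 0. The called gene was NGLY1, the glycanase that processes NFE2L1, at 169, 143 and 252 with AAVS1 and at 367, 360 and 466 with guide 395 (log2 fold change 1.11, SE 0.27, limma adjusted p 0.0416). It was called under 8 of the 20 alternatives run, DESeq2 and both blocks among them, and lost under the other 12, with limma adjusted p of 0.110 without the 3 libraries that stood apart and 0.185 without AAVS1 replicate 2, and an edgeR adjusted p of 0.0502. NFE2L1 itself was at 2334, 1563 and 2714 and then at 2029, 1281 and 1346, with overlap (log2 fold change -0.50, SE 0.34, limma adjusted p 0.489). Among 4 proteasome parts outside the symbol rule, ADRM1, a ubiquitin receptor of the base, was at -0.51, POMP, the maturation factor of the core, at -0.37 and SEM1, a small lid subunit, at -0.28 as log2 fold changes. Of 16 genes for ubiquitin supply and shuttling, 12 were below 0, with a median of -0.23, and limma called 0. UFD1, a cofactor of the segregase VCP, stood at -0.92 on the log2 scale (limma adjusted p 0.0618), and was called lower with the replicate block (adjusted p 0.0203), with the block within each cell line (0.0213), without AAVS1 replicate 3 (0.0253) and by DESeq2 (0.00882). UBA1, the main enzyme that activates ubiquitin, stood at -0.79 (limma adjusted p 0.0870). It was called lower with the block within each cell line (adjusted p 0.0485) and by DESeq2 (0.0141). UFD1 was thus called under 4 and UBA1 under 2 of the 20 alternatives run. Without AAVS1 replicate 2, the limma adjusted p was 0.266 for UFD1 and 0.280 for UBA1. In the other 2 guide comparisons limma called 0 of the 37, beside 0.0% of all genes.

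Within groups, the members did not vary as 1 unit. After subtracting group means, the median pairwise correlation across the 18 libraries was 0.051 over 820 pairs of members, beside -0.001 over all pairs of genes tested. It was 0.17 among core, 0.26 among base and -0.038 among lid genes, and -0.028 between core and base. PSMD9, PSMD2 and PSMC1 ran against the median of the other members, with correlations of -0.67, -0.60 and -0.59. The trio of libraries that stood apart weighs on these values, which are given as a description.

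Promoter sequence was available for 35 of the 41 members in the RefSeq table (GRCh38.p14), as windows from 250 bases before to 50 after a start. PSMA7, PSMB1, PSMB6, PSMB7, PSMD4 and PSMG3 had no entry. Both strands were searched for 4 motifs, and shares are of genes with at least 1 match in any of their windows, beside the same share over 27305 genes. TGACNNNGC, the core of the element bound by NFE2L1 and NFE2L2, was found in 12 of 35 members (34.3%) and in 16.1% of all genes. It was present in 2 of 10 core, 3 of 8 base, 2 of 8 lid and 4 of 6 assembly genes. CCAAT, the NF-Y motif, was found in 18 (51.4%) and in 39.7% of all genes. CCGGAAG, an ETS motif, was found in 14 (40.0%) and in 12.2% of all genes, with 6 of 8 lid genes and 1 of 10 core genes. GCGCATGC, from the motif of nuclear respiratory factor 1, was found in 2 (5.71%) and in 3.68% of all genes. For 7 members described above, 1 of the matches upstream of the start is shown with 25 bases on each side, to let the motif be read in its context. Each runs 5′ to 3′ along the gene's strand, and capitals mark the match, which is the reverse complement in PSMD8.
PSMA5: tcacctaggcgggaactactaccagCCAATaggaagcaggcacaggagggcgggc
PSMB5: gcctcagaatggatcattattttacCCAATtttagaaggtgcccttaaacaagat
PSMC3: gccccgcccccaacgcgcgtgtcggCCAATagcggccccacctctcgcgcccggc
PSMD3: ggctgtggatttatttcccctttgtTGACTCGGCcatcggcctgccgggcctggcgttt
PSMD7: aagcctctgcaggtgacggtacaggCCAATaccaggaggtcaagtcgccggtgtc
PSMD8: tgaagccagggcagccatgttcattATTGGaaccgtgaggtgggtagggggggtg
PSMD9: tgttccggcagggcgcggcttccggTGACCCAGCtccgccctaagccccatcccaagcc
PSMD3 and PSMD9 carry the TGACNNNGC match, 29 to 37 and 94 to 102 bases before the start, and the other 5 show CCAAT. The windows lie at chr1:109426473-109426527 (PSMA5, minus strand), chr14:23035355-23035409 (PSMB5, minus strand), chr11:47426524-47426578 (PSMC3, minus strand), chr17:39980745-39980803 (PSMD3, plus strand), chr16:74296591-74296645 (PSMD7, plus strand), chr19:38374458-38374512 (PSMD8, plus strand) and chr12:121888663-121888721 (PSMD9, plus strand). A match is a description of letters and not a site in use.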

How the data were processed

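The deposited values are a signal: the read count of a gene over a size factor of its library, which the authors had applied, since each column is a whole-number multiple of its smallest value. The submitters' processing notes name GRCh38, limma, featureCounts 1.5.1, RSEM 1.3.0 and STAR 2.5.2b without their roles. Per the labels' protocols the kit reads transcripts at their 3′ end, so a long transcript gains no extra reads and the site cut by the guide may be unread. Whole reads were recovered in each library (100% of values whole, tolerance 0.01). Symbols and coordinates came from GENCODE 29.

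Signals were tested as log2(value + 1) with limma 3.58.1 (R 4.3.3, intensity trend, 6 group means, 18 libraries) over 15228 genes with 10 or more in at least 3 libraries, at a Benjamini-Hochberg adjusted p under 0.05. edgeR 4.0.16 and DESeq2 1.42.0 on recovered reads, other scalings, filters, pseudocounts, blocks and left-out libraries were alternatives. The procedure was tested on simulated data, with counts drawn independently for each library. The simulation held no replicate pairs and no libraries that stood apart, so it cannot show how these features affect the calls.

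The members, classes and lists were chosen with earlier results of these data known. Given in full were the 3 core, 3 base and 3 lid genes and the 1 assembly gene and 1 regulator with the smallest p in parental cells, the catalytic subunits, PSMD14, members called with or without the replicate block, and the largest value opposite in sign to the class median in core, base and lid. Groups and replicate numbers came from the labels. Deviations of same-numbered libraries from their group means correlated at 0.57, 0.20 and 0.28 in parental cells, all above 0.1. Differently numbered parental libraries lay between -0.39 and 0.15, with 0.15 for AAVS1 replicate 2 and 395 replicate 3. Pairing of numbers 2 and 3 is thus not well established. Parental numbers were taken as pairs in the descriptions by pair, and the replicate blocks use the numbers. The main limma fit, edgeR, DESeq2 and the permutation tests did not use pairs. What a number stands for is not given in the sources used here. PSMC1P1 aside, pseudogenes of members were at or near 0.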

Additional observations from a re-analysis of the deposited data

How the results depend on the processing

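Counts of called members in parental cells were 0 in the analysis as reported, beside 1.78% of all genes. They were 2 with the replicate block and 5 with DESeq2, beside 2.24% and 3.09% of all genes called lower. They were 1 with the replicate block within each cell line and 0 to 1 when each library was left out. Shares of all genes are not given for those last fits, so their counts do not set the members apart. The other 8 comparisons had 0 calls under every alternative run; the block within each cell line was not run for the 3 comparisons under the control guide. Leaving out each library moved the parental medians between -0.43 and -0.22 for members, -0.49 and -0.23 for core, -0.82 and -0.42 for base and -0.46 and -0.23 for lid genes. The lowest values were without parental 395 replicate 1, for base without parental AAVS1 replicate 1, and the highest without parental 395 replicate 3 for members and lid, AAVS1 replicate 1 for core and AAVS1 replicate 2 for base. In the cells labelled DDX3Xoe it moved the medians between -0.12 and 0.054 for members, -0.19 and 0.097 for core, -0.15 and 0.13 for base and -0.16 and -0.022 for lid genes, and in DDX3Yoe cells between -0.14 and -0.096, -0.14 and -0.037, -0.27 and -0.058, and -0.12 and -0.066. In the cells labelled DDX3Xoe the lid median was -0.045 without both replicate 1 libraries and -0.022 without the 3 libraries that stood apart. PSMD14 in parental cells was 0.060 without parental AAVS1 replicate 1, where its sign turned. No other alternative turned the sign of a member given in full, and the replicate block changed, among members, the calls of PSMD1 and PSMD7 alone. Quantile normalisation brought PSMD3 to -0.30. Without the 3 libraries that stood apart, and without both replicate 1 libraries labelled DDX3Xoe, the change in share of reads there was 0.91 and -1.72% for members, -8.60 and -9.54% for base and 2.57 and 4.67% for lid genes, against 2.31, 1.92 and -4.26% with all libraries, with overlap each time. Among differences between lines, leaving out the 3 libraries moved the DDX3Xoe minus parental guide effect to 0.42 for members and 0.33 for lid genes, and leaving out both replicate 1 libraries moved it to 0.31 for base genes. The lid median of DDX3Yoe minus DDX3Xoe turned from 0.11 to -0.084 and -0.052 in these respective cases. Under the control guide the lid medians became -0.18 and -0.21 for DDX3Xoe against parental, 0.16 in both cases for DDX3Yoe against DDX3Xoe, and -0.091 without the 3 libraries for DDX3Yoe against parental. In DDX3Xoe and DDX3Yoe cells same-numbered libraries did not all correlate above 0.1. The cause of these shifts was not tested. Fold changes of genes with few reads, such as PSMA6, are uncertain.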
